A study of Homo sapiens with 6 samples.

Results

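Mirtron miRNAs were examined in HK-2 cells, through 10 probes for miRNAs of 8 hairpins, chosen by the names printed on the arrays, out of 1719 human miRNA probes. The names were hsa-miR-877, hsa-miR-1224-5p, hsa-miR-1224-3p, hsa-miR-1225-5p, hsa-miR-1225-3p, hsa-miR-1226, hsa-miR-1227, hsa-miR-1228, hsa-miR-1236 and hsa-miR-1238, and all were on the arrays with 1 spot each. The HK-2 line derives from the epithelium of the human kidney's proximal tubule and was made immortal by genes of a papillomavirus. The AA group was 3 samples given aristolochic acid, a nephrotoxic plant compound, at 5 µg/ml over 48 h, and the control group was 3 samples without the compound, both in 0.2% FCS. From each sample 500 ng of total RNA was labelled for a 1-colour array. Whether samples of a group were separate cultures is not stated, and the spread behind each p-value may therefore be technical.

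Most miRNAs are cut from a primary transcript by Drosha with DGCR8 and then from the exported hairpin by Dicer. A mirtron takes another way: a short intron is spliced out and debranched, and the folded intron itself serves as the hairpin for Dicer, so the splicing machinery stands in for Drosha. The name does not settle the route for every hairpin here, because human miR-1225 and miR-1228 have been described as made without splicing and with the help of Drosha. A mirtron hairpin begins with the GU of a splice donor and ends with the AG of a splice acceptor, and its arms inherit these ends.

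The mature sequences are given to show the intron-like ends and the base content by which the arms are described below, with the seed (bases 2 to 8) in capitals. They were taken from RefSeq (GRCh38.p14), in which 13 arms with a probe were found by name, the 10 members and the opposite arms miR-877*, miR-1226* and miR-1228*. The 5p arms were these.
miR-877 (5p): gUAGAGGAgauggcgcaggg
miR-1224-5p: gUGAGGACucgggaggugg
miR-1225-5p: gUGGGUACggcccagugggggg
miR-1226* (5p): gUGAGGGCaugcaggccuggaugggg
miR-1228* (5p): gUGGGCGGgggcaggugugug
The 3p arms were these.
miR-877* (3p): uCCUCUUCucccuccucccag
miR-1224-3p: cCCCACCUccucucuccucag
miR-1225-3p: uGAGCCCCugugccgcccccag
miR-1226 (3p): uCACCAGCccuguguucccuag
miR-1227 (3p): cGUGCCACccuuuuccccag
miR-1228 (3p): uCACACCUgccucgcccccc
miR-1236 (3p): cCUCUUCCccuugucucuccag
miR-1238 (3p): cUUCCUCGucugucugcccc
All 5 of the 5p arms began with GU, as did 3.42% of the 2370 mature human miRNAs in the table. Of the 8 3p arms, 6 ended with AG, against 12.1% of that table, and the other two, miR-1228 and miR-1238, stopped short of it. The 13 arms had 13 different seeds, and no other mature miRNA in the table shared one of them, so no member belongs to a seed family. Their GC content was 59.1% to 77.3%, against a median of 52.2% over the table.

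The hairpins were 73 to 102 bases long. All 8 began with GU and ended with AG, as did 36 of the 1560 human hairpins in RefSeq (2.31%). Each lay within the span of 1 protein-coding gene, and for 7 the strands were the same; the strand of the remaining host, ATG4D, was not in the tables used here. Exon positions were not used, so intron ends were judged from these letters alone. The hosts were ABCF1 on chromosome 6 (a translation factor of the ABC family, MIR877), VWA5B2 on chromosome 3 (MIR1224), PKD1 on chromosome 16 (polycystin-1, mutated in polycystic kidney disease, MIR1225), DHX30 on chromosome 3 (an RNA helicase, MIR1226), PLEKHJ1 on chromosome 19 (MIR1227), LRP1 on chromosome 12 (an endocytic receptor, MIR1228), NELFE on chromosome 6 (a subunit of the negative elongation factor, MIR1236) and ATG4D on chromosome 19 (an autophagy protease, MIR1238). The hairpins of miR-1228 and miR-1227 are shown because the results below turn on them, with the outermost bases in capitals.
MIR1228, GRCh38.p14, chr12:57194504-57194576, plus strand: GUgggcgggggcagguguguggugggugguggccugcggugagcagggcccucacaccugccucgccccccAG
MIR1227, GRCh38.p14, chr19:2234062-2234149, minus strand: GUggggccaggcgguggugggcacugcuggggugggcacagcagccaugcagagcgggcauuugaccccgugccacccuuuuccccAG

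Array brightness differed between the groups. The authors' subtracted background was 53.3 to 61.8 on the AA arrays and 50.6 to 51.8 on the control arrays, and the share of human probes detected was 37.6% to 50.8% and 37.5% to 54.5%. A probe is called detected where the authors kept a background-subtracted intensity for it. This limit was low: 6.09% to 8.01% of the 1248 blank spots on an AA array, and 6.73% to 6.89% on a control array, were at or above its lowest kept human probe. Of 5 miRNAs listed as proximal tubule markers, 4 were detected on all 6 arrays (miR-204 was not), as were 2 of 3 epithelial markers and 6 of 13 markers of other cell types.

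The members were dim, and 4 of the 10 were detected on all 6 arrays: miR-1224-3p, miR-1228, miR-1236 and miR-1238, all 3p arms. Among all human probes, 503 of 1719 (29.3%) were detected on all 6. Every member was detected on at least 1 array, as were 71.1% of human probes. By array, the AA samples detected 6, 7 and 8 of the 10 members, and the control samples 8, 9 and 6. By a stricter limit, the mean plus 2 SD of the negative control spots, none of the 10 members was detected on all 6 arrays, against 383 human probes (22.3%). The plot of raw intensities against blank spots shows how close the members lay to background.

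**Figure D1:**
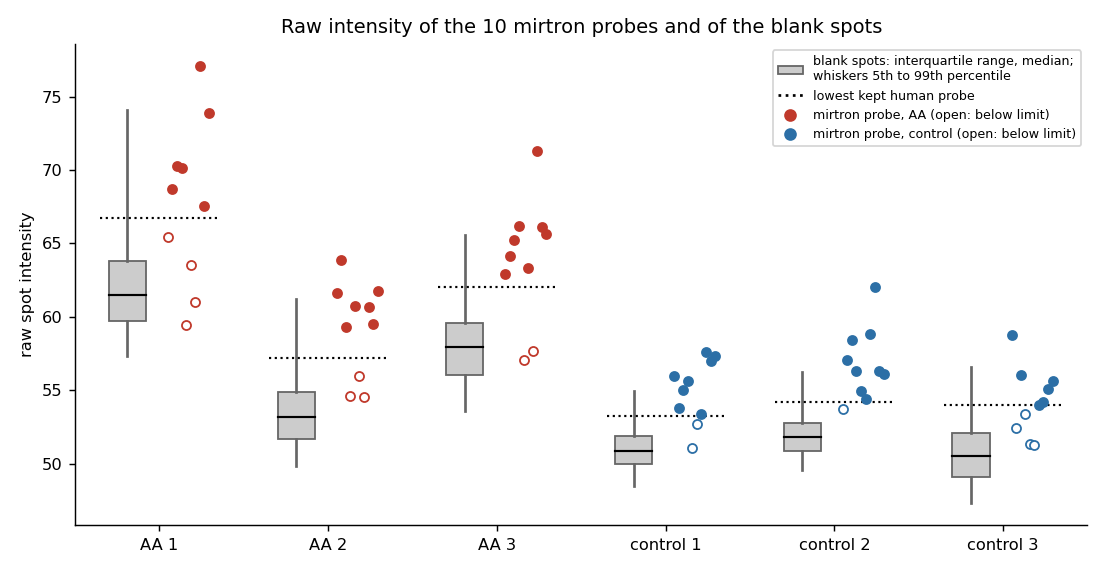
Raw spot intensity (arbitrary units) of the 10 mirtron probes on each of the 3 AA and 3 control arrays, filled where detected, beside a box for the 1248 blank spots (interquartile range and median, whiskers from the 5th to the 99th percentile). The dotted line is the lowest kept human probe of that array. Members range from 54.5 to 77.1 on the AA arrays and from 51.1 to 62.0 on the control arrays, and on each array several lie within the whiskers of the blank spots.

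Levels are given as scaled intensity, the background-subtracted intensity multiplied per array so that the median of the 503 commonly detected probes is 25; values below about 4 to 6 lie under the detection limit, which was 3.59 to 5.98 on this scale. Probes differ in affinity, so a level is not compared between probes. No member reached 25 on any array, as the plot of scaled intensity by sample shows.

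**Figure D2:**
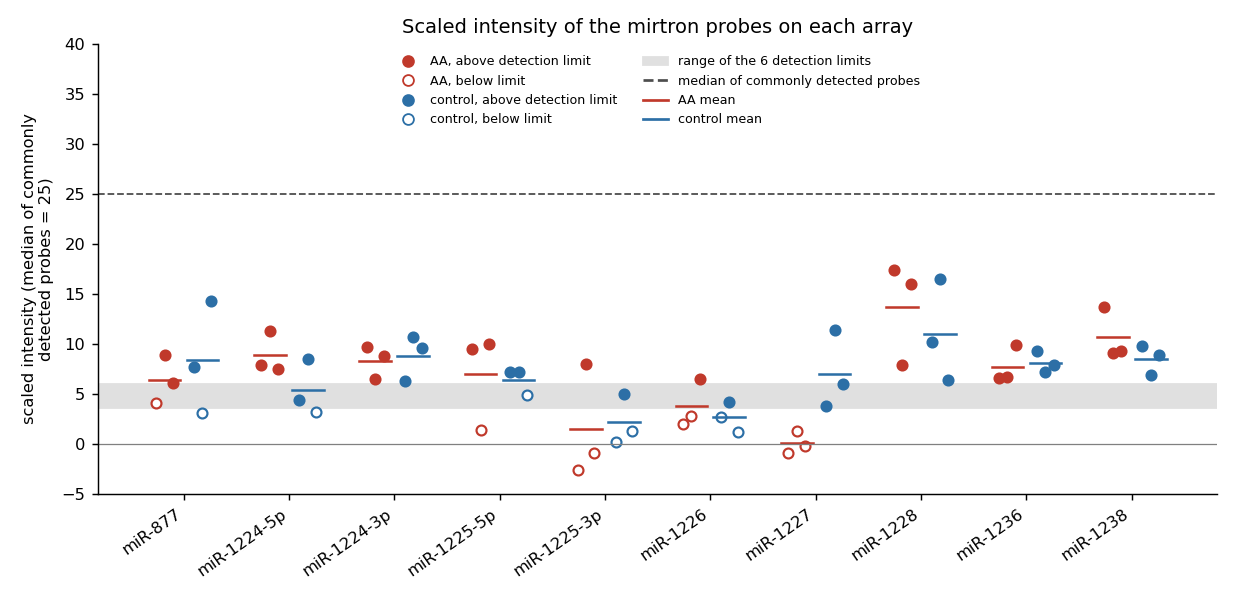
Scaled intensity of each mirtron probe in the 3 AA samples (left) and the 3 control samples (right), filled where detected and open where not; short lines are group means, the grey band spans the detection limits of the 6 arrays and the dashed line is the median of 503 commonly detected probes. The groups overlap for every member except miR-1227, whose 3 AA values lie between -0.90 and 1.28, below all control values.

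Of the 3p arms, hsa-miR-1228 from the LRP1 hairpin had a scaled intensity of 17.4, 7.83 and 15.98 in AA samples and 10.2, 16.5 and 6.35 in control samples. The groups overlapped, with the lowest value of each group less than 50% of its highest. Its mean was 13.7 ± 5.16 in AA and 11.01 ± 5.12 in control samples (SD, n = 3 each), a ratio of geometric means of 1.27 with a 95% interval of 0.667 to 2.41. Intervals of such ratios here are from a linear model (limma) of log2 scaled intensity over the commonly detected probes. This model shares variance between probes, so an interval does not rest on the probe's own replicates alone. Blank spots brighter than this probe numbered 5 to 16 of 1248 on the AA arrays and 1 to 71 on the control arrays.

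Hsa-miR-1238, from the ATG4D hairpin, had 13.7, 9.07 and 9.26 in AA samples and 9.81, 6.86 and 8.87 in control samples. AA replicate 1 was the highest and the other two AA values lay within the control range. The ratio was 1.24 (95% interval 0.877 to 1.77). MiR-1236, from the NELFE hairpin, had 6.57, 6.64 and 9.85 in AA samples and 9.25, 7.18 and 7.86 in control samples, a ratio of 0.937 (0.677 to 1.30). MiR-1224-3p, from the VWA5B2 hairpin, had 9.67, 6.44 and 8.78 in AA samples and 6.25, 10.6 and 9.58 in control samples, a ratio of 0.950 (0.642 to 1.41). For miR-1236 the control values all lay inside the AA range, and for miR-1224-3p the AA values all lay inside the control range. All 4 intervals included 1 and were wide.

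Hsa-miR-1227, from the PLEKHJ1 hairpin, was the member whose groups separated. It had -0.90, 1.28 and -0.24 in AA samples, where it was not detected on any array, and 3.74, 11.4 and 5.98 in control samples, where it was detected on all 3. All control values lay above all AA values. On control replicates 1 and 3, however, its raw intensity was only 0.095 and 0.000584 above the lowest that was kept on that array. There 79 and 84 of 1248 blank spots were brighter, against 2 on control replicate 2. By the stricter negative control limit miR-1227 was not detected on any array. Its AA level is only bounded. The normalized log2 mean was 5.91 in control samples, against a bound of 5.88 and a measured mean of 5.79 in AA samples. From the control mean to the bound is 1.02-fold, a difference of means without an error, so it does not set a smallest decrease. The raw intensities of the groups overlapped, with 61.0, 54.5 and 57.7 on the AA arrays and 53.4, 58.9 and 54.0 on the control arrays.

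The other two 3p members, miR-1226 from the DHX30 hairpin and miR-1225-3p from the PKD1 hairpin, were each detected on 2 of 6 arrays, 1 in each group. MiR-1226 had 1.98, 2.80 and 6.50 in AA samples and 2.68, 4.19 and 1.16 in control samples. MiR-1225-3p had -2.66, 7.95 and -0.94 in AA samples and 0.20, 4.99 and 1.32 in control samples. For both, the remaining values lay under the detection limit of their array.

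Of the 5p members, none was detected on all 6 arrays. MiR-1224-5p was detected on all 3 AA arrays, at 7.84, 11.3 and 7.49, and on 2 control arrays, with 4.34, 8.46 and 3.21 in control samples. Control replicate 2 lay within the AA range and the other two control values below it. MiR-877, from the ABCF1 hairpin, had 4.13, 8.89 and 6.04 in AA samples and 7.69, 3.08 and 14.3 in control samples and was detected on 2 arrays of each group. MiR-1225-5p had 9.52, 1.37 and 9.95 in AA samples and 7.20, 7.22 and 4.84 in control samples, also detected on 2 arrays of each group. In both, 1 value of each group lay under the detection limit of its array.

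Raw intensity alone would give another picture, since it was higher on the AA arrays for most probes. For 7 of the 10 members every AA array had a higher raw intensity than every control array, and so did 77.2% of human probes and 62.0% of the blank spots. On the scaled intensity no member lay above in all AA samples and 1 lay below, against 5.53% and 7.45% of human probes.

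In the model across all 625 tested probes (limma on log2 intensity after normexp background correction with an offset of 50 and quantile normalization), 0 of the 6 tested members passed an adjusted p of 0.05, where 0.96% of all tested probes passed, 0.8% as higher and 0.16% as lower in AA. At an unadjusted p under 0.05 there was 1 member, miR-1227, against 15% of tested probes, and it was also the 1 of 6 whose groups did not overlap on this scale, against 19.6% of 624 tested probes in either direction and 10.7% with AA below. This member entered the test only through its control arrays, the group in which it was higher, so neither count supports a difference. Adding the offset pulls log2 differences of low signals towards 0, so they are smaller here than the ratios above. MiR-1224-5p entered only through its AA arrays. The other 4 members were detected on all 3 arrays of neither group and were not tested.

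MiR-1227 had a log2 difference, AA minus control, of -0.12 (SE 0.037, 95% interval -0.21 to -0.032, limma adjusted p = 0.200). Without the filter on detection its limma adjusted p was 0.317. That of miR-1224-5p was 0.066 (-0.020 to 0.15, adjusted p = 0.437), that of miR-1228 was 0.043 (-0.10 to 0.19, adjusted p = 0.754) and that of miR-1238 was 0.041 (-0.052 to 0.13, adjusted p = 0.685). MiR-1224-3p had -0.0043 (-0.093 to 0.084, adjusted p = 0.963) and miR-1236 had -0.0063 (-0.084 to 0.071, adjusted p = 0.937). Single arrays moved some of these values: miR-1228 was at 0.0071 without control replicate 3, 0.0089 without AA replicate 1, 0.024 without AA replicate 3, 0.089 without control replicate 2 and 0.092 without AA replicate 2. MiR-1238 was at 0.011 without AA replicate 1 and 0.023 without control replicate 2. The count called depended on scaling between arrays. With median scaling 1 of 6 passed, miR-1227 at -0.23 (limma adjusted p = 0.0290), where 0.8% of all tested probes passed as lower, with the same limit from its filter. With the 75th percentile 3 of 6 passed as lower, miR-1227, miR-1236 and miR-1224-3p, and so did 33.1% of all tested probes. Without normalization 2 of 6 passed as higher, miR-1224-5p and miR-1238, and so did 49.6% of all tested probes. MiR-1224-5p carries a like limit, as it was tested only through its AA arrays. These scalings moved the median of all tested probes to -0.11 with the 75th percentile and to 0.14 without normalization.

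Against other miRNA probes of like brightness, members were read by quartile of mean brightness over all 6 arrays. The other 153 probes of the dimmest quartile had a median difference of -0.016, with an interquartile range from -0.041 to 0.024, and the other 154 of the next quartile had -0.0095, from -0.038 to 0.033. MiR-1224-3p and miR-1236 lay inside the interquartile range of their quartile. MiR-1224-5p, miR-1228 and miR-1238 lay above it and miR-1227 below it, as the plot of differences shows. Of these, miR-1224-5p and miR-1227 were tested only through the group in which they were higher. The mean log2 intensity of miR-1227 was 5.846, dimmer than every other probe of its quartile (5.857 or more). That quartile therefore gives no reference of like brightness for miR-1227. The median of the 6 tested members was 0.018, and that of the 4 detected on all 6 arrays was also 0.018, against -0.011 for all tested probes. Within groups, the per-array median of the tested members had an SD of 0.020. Without the filter the median was 0.0023 over all 10 members and 0.00014 over all 1719 human probes. Canonical processing of the other probes was not checked.

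**Figure D3:**
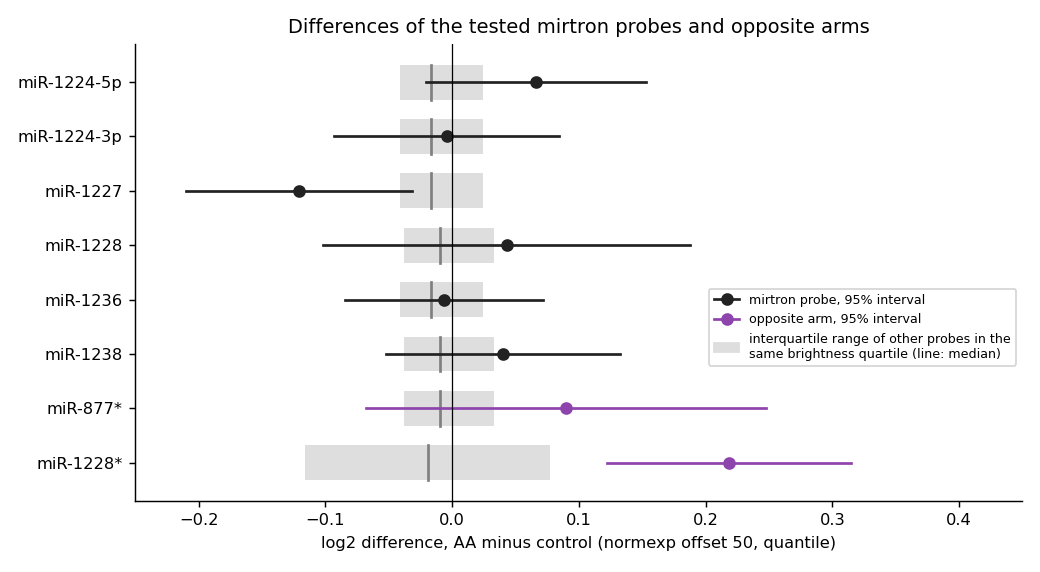
Log2 difference, AA minus control, of the 6 tested mirtron probes and of 2 opposite arms, with 95% intervals from limma; grey boxes give the interquartile range, and the grey line the median, of other tested probes in the same brightness quartile. The intervals of miR-1227 and miR-1228* exclude 0, on opposite sides, but neither passed after adjustment over 625 probes, and miR-1227 was tested only because of its control arrays. MiR-1227 was also dimmer than all other probes of its quartile.

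Of the opposite arms, 1 stood clear of the blank spots on every array. MiR-1228*, the 5p arm of the LRP1 hairpin, had a raw intensity of 309.96, 292.5 and 283.7 on the AA arrays and 202.1, 187.7 and 173.3 on the control arrays, and 0 of 1248 blank spots was brighter on any array. Its scaled intensity was 282, 257 and 269 in AA samples and 232, 219.8 and 215 in control samples, with every AA value above every control value. The means were 269 ± 12.5 and 222 ± 8.71 (SD, n = 3 each), a ratio of 1.21 with a 95% interval of 0.9749 to 1.51. In the limma model of log2 scaled intensity that gave this interval, the probe's own residual SD was 0.062. Its SE, with variance shared between probes, was 0.137. In the model across all probes its log2 difference was 0.22 (SE 0.040, limma adjusted p = 0.0687), which did not pass. It passed with median scaling (0.45, adjusted p = 0.00664), the 75th percentile (0.37, adjusted p = 0.00609), no normalization (0.63, adjusted p = 0.00125) and cyclic loess (0.24, adjusted p = 0.0176), under which 5.12%, 6.08%, 49.6% and 0.96% of all tested probes passed as higher. Its adjusted p was 0.178 with the replicate block, 0.220 with a trended robust variance and 0.973 on the authors' globally normalized intensity. The difference was above 0 in each of 19 alternatives, but it passed only in the 4 named first and not in the other 15. Without 1 array its limma adjusted p was 0.115 to 0.186.

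MiR-877*, the 3p arm of the ABCF1 hairpin, was detected on all 6 arrays, unlike miR-877 itself. On control replicate 2, however, its raw intensity was only 0.181 above the lowest kept, and 66 of 1248 blank spots were brighter. MiR-877* had 10.1, 19.3 and 14.1 in AA samples and 17.3, 4.08 and 7.62 in control samples, which overlapped (limma log2 difference 0.090, SE 0.066, adjusted p = 0.583). That difference was 0.038 without control replicate 2, 0.052 without AA replicate 2 and 0.16 without control replicate 1. MiR-1226* was detected on control replicate 2 alone. The plot of both arms by hairpin sets these values out.

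**Figure D4:**
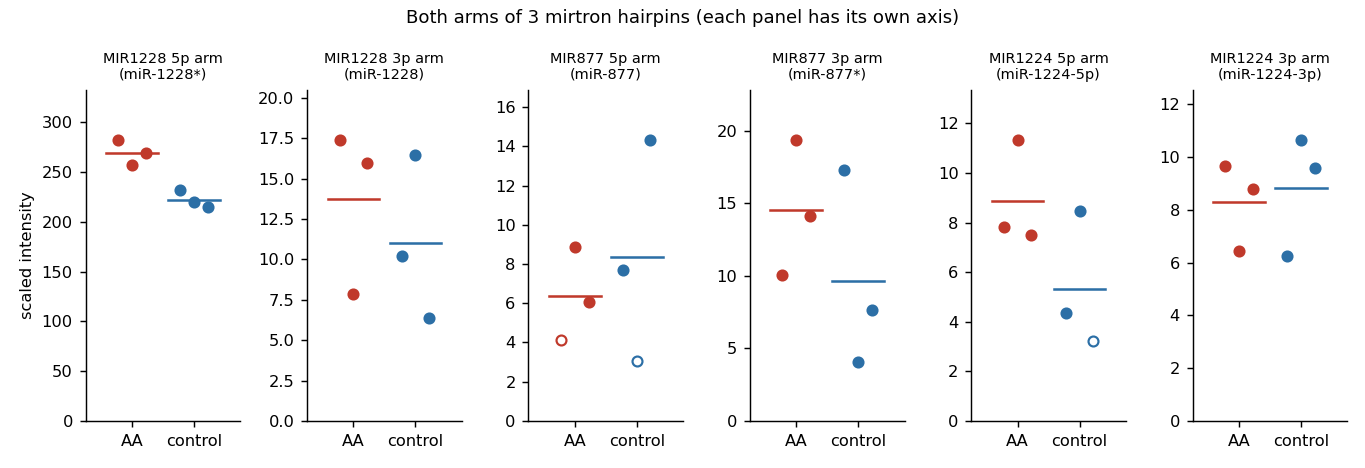
Scaled intensity of both arms of MIR1228, MIR877 and MIR1224 in 3 AA samples (left) and 3 control samples (right), filled where detected; short lines are group means and each panel has its own axis from 0. MiR-1228* is at 257 to 282 in AA and 215 to 232 in control samples, without overlap, while the other 5 arms overlap between groups.

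The balance between arms is described by the ratio of the 5p to the 3p signal within each array, which does not depend on array scaling, over arrays on which both arms were detected. No outcome of the exact tests below could pass 0.05 with so few arrays, and the ratios include probes close to background, such as miR-1228 on control replicate 3, where 71 of 1248 blank spots were brighter. For MIR1228 the log2 ratio was 4.38 ± 0.572 in AA and 4.44 ± 0.673 in control samples (SD, n = 3 each), a difference of -0.065 (exact permutation test, 2-sided, p = 0.9, adjusted 0.9; the smallest possible was 0.1). The sign of this difference turned without AA replicate 1 (0.11), AA replicate 3 (0.087) or control replicate 3 (0.25) and with normexp correction. For MIR1224 the log2 ratio was 0.095 ± 0.625 on 3 AA arrays and -0.43 ± 0.139 on 2 control arrays, a difference of 0.52 (exact permutation p = 0.4, adjusted 0.9, smallest possible 0.1), and 0.16 without AA replicate 2. For MIR877 it was -1.17 ± 0.0732 and -0.13 ± 1.47 on 2 arrays each, a difference of -1.04 (exact permutation p = 0.667, adjusted 0.9, smallest possible 0.333), and -0.0075 without control replicate 3. MIR1225 and MIR1226 had both arms detected on 1 array only, control replicate 2, and were not tested. These ratios are of probe signals, so their size does not give the ratio of the arms' amounts.

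The arms fell into classes by base content, which was looked at after the values had been seen. All 5 of the 5p arms had at least 50% G, and 1 of them, miR-1228* with 66.7% G, was detected on all 6 arrays. Among 94 other human probes with at least 50% G, 80 were (85.1%), while among 865 with under 50% of G and of C, 164 were (18.96%). Of the 3p arms, 7 had at least 50% C, and 5 of these were detected on all 6 arrays, against 19 of 36 other C-rich probes (52.8%). The sequences could be matched by name for 1008 of the 1719 human probes. Other probes were matched only where the array name equalled the RefSeq name, while the 13 mirtron arms were also matched through older names. Of the 995 other probes so matched, 263 (26.4%) were detected on all 6 arrays, against 29.3% of all human probes. The classes of other probes may therefore not stand for all human probes. The part that base content plays in these signals was not tested.

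**Figure D5:**
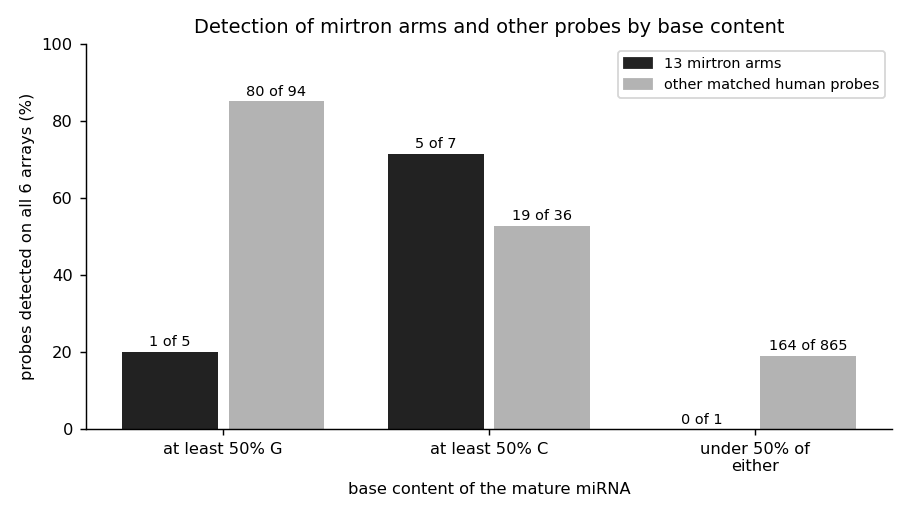
Percentage of probes detected on all 6 arrays by base content of the mature miRNA, for the 13 mirtron arms (dark) and the other human probes with a matched sequence (grey), with counts above the bars. G-rich mirtron arms were detected in 1 of 5 cases and other G-rich probes in 80 of 94.

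Lists of related miRNAs were read beside the members. Of 4 further mirtrons or mirtron candidates (miR-1229, miR-1233, miR-1234 and miR-1237), 3 were tested and 0 passed, with differences from -0.089 for miR-1229 to 0.11 for miR-1234. MiR-1234 had a scaled intensity of 17.4, 14.8 and 19.4 in AA samples and 9.95, 10.3 and 11.5 in control samples, without overlap (limma log2 difference 0.11, SE 0.034, adjusted p = 0.196). Of 9 miRNAs listed for other processing routes, 7 were tested and 0 passed. They were miR-320a and miR-484, whose capped hairpins bypass Drosha, the other members of the miR-320 family, and miR-664, which comes from a snoRNA. The route of those other miR-320 members was not checked. All 7 had differences below 0, from -0.19 for miR-664 (limma adjusted p = 0.114) to -0.011 for miR-320c. Among all tested probes, 343 of 625 were below 0. The miR-320 probes belong to the same family, so the 7 are not independent cases to set against that share. MiR-451, which is made without Dicer, was not detected on any array.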

How the data were processed

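Total RNA of 6 HK-2 samples was measured on 1-colour miRNA arrays, labelled with an LNA labelling kit per the labels' protocols. The scanner, software and genome build are not given in the sources used here. Per the file headers, the deposited values are raw spot intensity, background-subtracted intensity and globally normalized intensity, and a coefficient of variation for control spots, a ratio that was not used. The authors' subtracted background was 1 constant per array. The value table of the series held the same globally normalized intensities, so it was not run as a separate alternative. Starting from raw intensity, background was corrected by normexp (offset 50) over all spots, marked spots were left out, human probes were quantile normalized, and 625 probes, each detected throughout the AA group, the control group or both, entered the limma model (limma 3.58.1, R 4.3.3), with Benjamini-Hochberg adjustment and a threshold of 0.05. Steps were also run on simulated data. These had the same background in both groups, unlike the arrays here, and another detection limit. They therefore do not show how the background difference between the groups acts on the results. All members and the opposite arms are named, whatever their value. Of the further lists, those past the threshold and up to 4 examples are named. The members, lists and tests were chosen with earlier results of these data known. Depth has no counterpart on these arrays, and the number of arrays limits the precision. Alternatives changed scaling, background, filter, variance model, block and threshold and left out each array.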

Additional observations from a re-analysis of the deposited data

How the results depend on the processing

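The members lie near background, which limits every comparison above. Over all probes 6 changed; median scaling gave 37, the 75th percentile 245, no normalization 310, the spike-ins 20, the authors' globally normalized intensity 1, a trended robust variance 10 and a threshold of 0.1 gave 14. Without 1 array the number was 3 to 5. Of the members 0 changed, but 1 with median scaling, 3 with the 75th percentile and 2 without normalization, and 0 without any 1 array. The members' median of 0.018 was -0.054, -0.13 and 0.12 with those scalings, 0.39 on the spike-ins, 0.039 with offset 16, 0.12 on the scaled intensity and -0.014 on the authors' values, and -0.0021 to 0.046 without 1 array. The spike-in, scaled and authors' values cover the 4 members detected on all 6 arrays. The count detected was 0 by the negative control limit and 10 for at least 1 array. Same-numbered samples did not deviate together (r = -0.14, -0.18 and 0.0077); with the replicate block 4 probes and 0 members passed, with a members' median of 0.018.

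The sign turned for these differences. With median scaling it was -0.013 for miR-1224-5p, -0.012 for miR-1228 and -0.028 for miR-1238. With the 75th percentile it was -0.093, -0.091 and -0.11 for the same probes and -0.051 for miR-877*. Without normalization it was 0.093 for miR-1224-3p and 0.090 for miR-1236, and on the spike-ins 0.20 and 0.17. With array weights miR-1224-3p had 0.0083. Without 1 array miR-1224-3p had -0.026 to 0.017 and miR-1236 had -0.023 to 0.0074. MiR-1225-5p was not tested in the main model, and its difference without the filter was 0.00895. It met the filter only without AA replicate 2 (0.066) or without control replicate 3 (-0.00076). The arm ratio of MIR1228 differed by 0.47 with normexp at offset 50 and 0.40 at offset 16, and by -0.42 to 0.25 without 1 array. The cause was not tested.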

Other observations

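Other RefSeq hairpins that begin with GU and end with AG numbered 28, and 4 of them had probes under the same mature name, 5 probes in all. Of these, 3 were detected on all 6 arrays and tested, and 0 passed. MiR-3621 had a log2 difference of 0.13 (limma adjusted p = 0.237), miR-4728-5p had 0.059 (adjusted p = 0.585) and miR-4728-3p had -0.037 (adjusted p = 0.762). MiR-1231 was detected on 2 arrays and miR-4510 on none. This list was made after the values had been seen.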
